A study of Canis lupus familiaris with 6 samples.

Results

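The TRIM, FBXO, FBXL, FBXW, KLHL and ASB genes encode substrate-recognising parts of ubiquitin ligases, and several of them act mainly in striated muscle. The members were all probe sets with exactly 1 gene symbol in the array annotation that consisted of one of these family names followed by a number. The rule gave 274 probe sets for 148 genes, out of 42924 probe sets and 15115 named genes on the array. There were 42 TRIM, 31 FBXO, 15 FBXL, 8 FBXW, 35 KLHL and 17 ASB genes, and 68 genes had a single probe set. No filter on low values was applied, so every member entered the comparison.

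The samples were frozen left ventricle from 6 dogs, hybridised as total RNA to Affymetrix canine arrays with 1 array per dog. Control 1 was a male Labrador retriever of 12 years, control 2 a female St. Bernard of 10 years and control 3 a male Greater Swiss Mountain dog of 4 years. Cardiomyopathy, named DCM in the labels, was present in the 3 Great Danes, a female of 9 years (affected 1) and males of 7 years (affected 2 and affected 3). No control dog was a Great Dane, so breed and disease cannot be told apart in any comparison, and the youngest dog was a control. The labels mention no drug or other treatment of the dogs.

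Ubiquitin ligases choose the proteins that receive ubiquitin and so mark them mostly for breakdown by the proteasome. TRIM proteins usually carry their own RING domain, which recruits the ubiquitin-conjugating enzyme. F-box proteins (FBXO, FBXL, FBXW) join the cullin CUL1 through the adaptor SKP1, KLHL proteins join CUL3 through their BTB domain, and ASB proteins join CUL5 through elongins B and C. In striated muscle, TRIM63 (MuRF1) and FBXO32 (atrogin-1) are the classical ligases of muscle wasting, and KLHL40 and KLHL41 keep thin filament proteins stable.

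Deposited values are on a log2 scale and centred, so that each probe set has a median of 0 on the 6 arrays. They show how arrays differ but not how strongly a gene was expressed, and no gene's level can be set against that of another. For the same reason the presence of cardiomyocyte markers could not be checked as a level, and 17 of 20 such markers were measured, with a median difference of 0.14. A gene's value is the mean of its probe sets, differences are affected minus control with n = 3 dogs in each group, and SE is the moderated standard error of limma. Every gene with an unadjusted p under 0.05 that is named had a limma adjusted p = 0.322. In whole tissue, fewer cells of a type and less RNA per cell cannot be told apart.

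None of the 148 ligase genes passed an adjusted p of 0.05 in limma (Benjamini-Hochberg over all genes, lowest adjusted p among members 0.322), and the same was true of all 15115 genes (0%). At an unadjusted p under 0.05 there were 9 members (6.08%), against 10.5% of all genes. Of these, 4 had higher values in affected hearts, where 4.88% of all genes did, and 5 had lower values, where 5.64% did. FBXO22, FBXO6, FBXO9 and KLHL5 were the higher ones, and KLHL41, KLHL10, TRIM33, KLHL26 and KLHL6 the lower ones; KLHL5 and KLHL6 are named only because they complete this count. No member combined such a p with a 2-fold difference, which 0.84% of all genes did upward and 0.304% downward. The share of all members at that p was thus below that of all genes. By family it was 14.3% for KLHL (5 of 35), 9.68% for FBXO, 2.38% for TRIM and 0% for FBXL, FBXW and ASB. No test set these shares against that of all genes.

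Single probe sets were also fitted. Of the 274 member probe sets none passed the adjusted threshold in limma (lowest adjusted p 0.296), where 1 probe set did on the whole array (0.00233%). An unadjusted p under 0.05 was found for 22 (8.03%), of which 8 were higher and 14 lower, against 10.9% of all probe sets. With a 2-fold difference as well there was 1 higher, of KLHL5 at 1.00 (1.16% of all probe sets), and 1 lower, of KLHL41 at -1.10 (0.333% of all probe sets). In 111 member probe sets (40.5%) the affected group lay wholly below the controls, against 46.9% of all probe sets.

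A lack of overlap between the groups was common among the members and as common elsewhere. In 57 ligase genes (38.5%) every affected value lay below every control value, against 41.7% of all genes. Only 5 ligase genes lay wholly above, against 5.8% of all genes. These were FBXO22, FBXO6, FBXO9, FBXL2 and KLHL20. The 17 control probe sets for tags that no sample contains did the same as the 57 genes, with medians of 0.06, 0.01 and 0.11 on control 1 to 3 and of -0.03, -0.03 and -0.01 on affected 1 to 3.

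Many members followed these unexpressed tags closely. Over the 6 arrays, 89 member probe sets (32.5%) correlated with the tag median at over 0.9, as did 41.5% of all probe sets. In 42 genes every probe set did so, and 41 of these were among the 57 that lay wholly below; since the tag median itself lies wholly below in the affected group, this follows nearly from the choice and is a description. Their ranges over the 6 arrays had a median of 0.18 and their differences ran from -0.36 to -0.04. Among the 76 genes without any such probe set, 10 lay wholly below and 2 wholly above, and the median range was 0.73. Leaving these probe sets out removes mostly negative differences by construction. It left 106 genes, of which 14 lay wholly below (13.2%, against 12% of all genes) and 6 wholly above (5.66%, against 9.55%). At an unadjusted limma p under 0.05 there were then 6 (5.66%, against 9.12% of all genes), 5 higher and 1 lower.

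**Figure D1:**
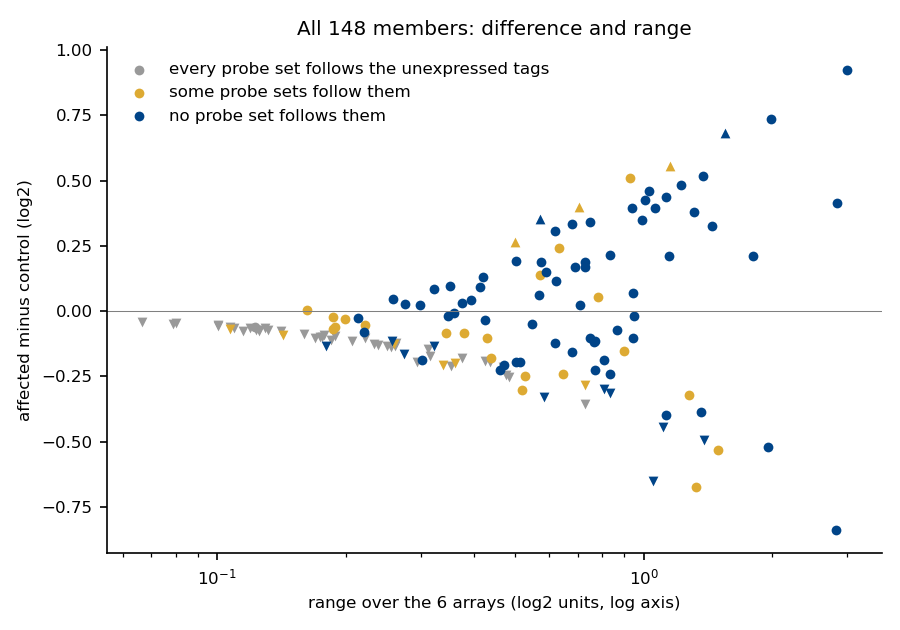
Each point is 1 of the 148 ligase genes, with its range over the 6 arrays on a log axis (log2 units) and its affected minus control difference (log2); triangles point down where the whole affected group is below the control group and up where it is above, and circles mark groups that overlap. The 42 grey genes, whose probe sets all follow the unexpressed tags, lie between -0.36 and -0.04, while the genes of wide range spread to both sides of 0.

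The muscle RING finger genes TRIM63, TRIM54 and TRIM55 encode related ligases of the sarcomere, known as MuRF1, MuRF3 and MuRF2. TRIM54 had values of 0.11, -0.42 and -0.65 in the controls and 0.38, 0.07 and -0.03 in the affected hearts. Control 2 and control 3 were lowest and the groups overlapped through control 1. The difference was 0.46 (SE 0.23, 95% interval -0.12 to 1.03), and all 3 probe sets were above 0 (0.38, 0.40 and 0.61). Without control 3 it was 0.29, the smallest value with an array left out.

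TRIM55 had values of -0.09, 0.03 and -0.69 in the controls and 0.37, -0.09 and 0.16 in the affected hearts. Control 3 lay far below the other 5 arrays, which overlapped. Its difference of 0.40 (SE 0.23, interval -0.19 to 0.98) was 0.18 without control 3, and its 4 probe sets gave 0.12 to 0.71. Fibroblast markers ran in a like order except on affected 2, where their median lay above every control. Their list medians were -0.31, -0.12 and -1.51 in the controls and 1.09, 0.09 and 0.66 in the affected hearts. Of these markers 11 of 13 were above 0. The cardiomyocyte list was likewise lowest on control 3, with 14 of 17 markers above 0. Its medians were 0.02, -0.04 and -0.18 in the controls and -0.03, 0.08 and 0.10 in the affected hearts. TRIM54, like TRIM55 and the fibroblast list, was lowest on control 3 and highest on affected 1, but its control 1 value lay above affected 2 and affected 3. The part of fibroblasts or cardiomyocytes in the TRIM54 and TRIM55 values was not tested.

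TRIM63 targets myosin and other sarcomere proteins for breakdown. Its values were 0.32, -0.23 and -0.07 in the controls and -0.58, 0.03 and 0.11 in the affected hearts. The lowest array was affected 1 and the highest control 1, and the other 4 lay between them. The difference was -0.15 (SE 0.24, interval -0.76 to 0.46), and it turned to 0.01 without control 1 and to 0.06 without affected 1. Its 4 probe sets gave -0.25, -0.25, -0.10 and -0.0032, and the one at -0.10 followed the tags.

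The remaining TRIM genes of muscle showed little. TRIM72 (MG53), a membrane repair protein of muscle, had a value of 0.54 on affected 1 and between -0.03 and 0.06 on the other 5 arrays. That came from 1 of its 3 probe sets, at 1.67 on affected 1. TRIM32, whose mutations cause a limb-girdle muscular dystrophy, ranged from -0.16 to 0.12, with a difference of 0.03 (SE 0.10).

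The F-box gene FBXO32 encodes atrogin-1, whose transcript FOXO factors raise in wasting muscle. Its values were 0.54, -0.05 and 0.87 in the controls and 0.02, -0.23 and -0.46 in the affected hearts. Control 1 and control 3 stood above the rest, and control 2 lay among the affected arrays. The difference was -0.67 (SE 0.27, interval -1.35 to 0.00, limma adjusted p = 0.322), and the 3 probe sets gave -0.93, -0.56 and -0.53. The probe set at -0.53 correlated with the tag median at 1.00 over the 6 arrays, and the others at 0.87 and 0.80. The ranges of the FBXO32 probe sets were 0.93, 1.84 and 1.31, against 0.15 for the tag median. Without control 2 the FBXO32 difference was -0.92, and without control 3 it was -0.46. The sign was the same in each of 15 alternatives.

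FBXO22, an F-box receptor known from muscle growth and from the turnover of histone demethylases, had the smallest p of the F-box genes. Its values were -0.07, -0.15 and -0.37 in the controls and 0.21, 0.08 and 0.18 in the affected hearts. Every affected heart lay above every control, also in each of its 2 probe sets (0.39 and 0.31). The difference was 0.35 (SE 0.09, interval 0.12 to 0.58, limma adjusted p = 0.322), or 1.28-fold. In the alternatives it ran from 0.27 to 0.42, and the unadjusted p stayed under 0.05 in 14 of 15, the highest being 0.0632 among the upper 60% of probe sets by range.

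FBXO9 and FBXO6 were the other F-box genes without overlap upward, along with FBXL2. FBXO9 had values of -0.27, -0.01 and -0.56 in the controls and 0.59, -0.01 and 0.24 in the affected hearts, and control 2 and affected 2 nearly met. The difference was 0.56 (SE 0.21), with probe sets at 0.93, 0.84 and -0.10, the last a follower of the tags. Affected 1 was highest and control 3 lowest in FBXO9, as in the fibroblast marker list, whose part was not tested. FBXO6, which binds glycoproteins bound for breakdown, had values of -0.34, -0.34 and 0.02 in the controls and 0.36, 0.02 and 0.15 in the affected hearts. Control 3 and affected 2 all but coincided. Its difference of 0.40 (SE 0.14) came from a probe set at 0.88, the other being at -0.08 and following the tags. In FBXL2, at 0.68 (SE 0.33), affected 3 was at 1.18 and the other affected arrays at 0.08 and 0.07. Without affected 3 the FBXL2 difference was 0.31. The related glycoprotein receptor FBXO2 differed by 0.52 (SE 0.33), which was 0.18 without control 3, its lowest array at -1.03.

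Other F-box genes of muscle did not separate the groups. FBXO40, a muscle ligase for the insulin receptor substrate IRS1, had values of -0.03, -0.79 and 0.36 in the controls and 0.03, -0.14 and 0.27 in the affected hearts. Its difference of 0.21 (SE 0.31) turned to -0.11 without control 2. FBXO31, a ligase for cyclin D1, had a value of 0.97 on affected 3 and between -0.34 and 0.12 elsewhere, and its difference of 0.38 (SE 0.32) was 0.04 without that array. FBXO30 (MUSA1), a wasting gene controlled by BMP signalling, differed by -0.11 (SE 0.22) and FBXO21 by -0.02 (SE 0.13). Leaving out control 1 turned both, to 0.08 and 0.06.

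Among the FBXL and FBXW genes of muscle, FBXL4, a regulator of mitochondrial turnover, had values of -0.53, 0.31 and -0.91 in the controls and 0.31, 0.03 and -0.03 in the affected hearts. Its difference was 0.48 (SE 0.33), which was 0.82 without control 2 and 0.21 without control 3. FBXL17 differed by 0.21 (SE 0.55), with -1.19 on control 3 and -0.85 on affected 1, and the difference turned to -0.24 without control 3. FBXL22, an F-box protein of the cardiac Z-disc, differed by -0.04 (SE 0.13), FBXW7, a ligase for MYC and cyclin E, by 0.07 (SE 0.27) and FBXW11, a ligase for beta-catenin, by 0.12 (SE 0.19).

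In each F-box family, the genes of smallest p (at most 3) with full separation downward were FBXL13, FBXO43, FBXO45, FBXO5, FBXL16, FBXW12, FBXL15 and FBXW9, between -0.36 and -0.06. All their probe sets followed the unexpressed tags. In the FBXO family 13 of 31 genes were above 0 and the median was -0.06, in the FBXL family 6 of 15 with -0.04 and in the FBXW family 5 of 8 with 0.09, against -0.07 over all genes. Without the tag-following probe sets, whose removal raises medians by construction, they were 0.09, 0.13 and 0.15, against 0.04 over all genes.

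**Figure D2:**
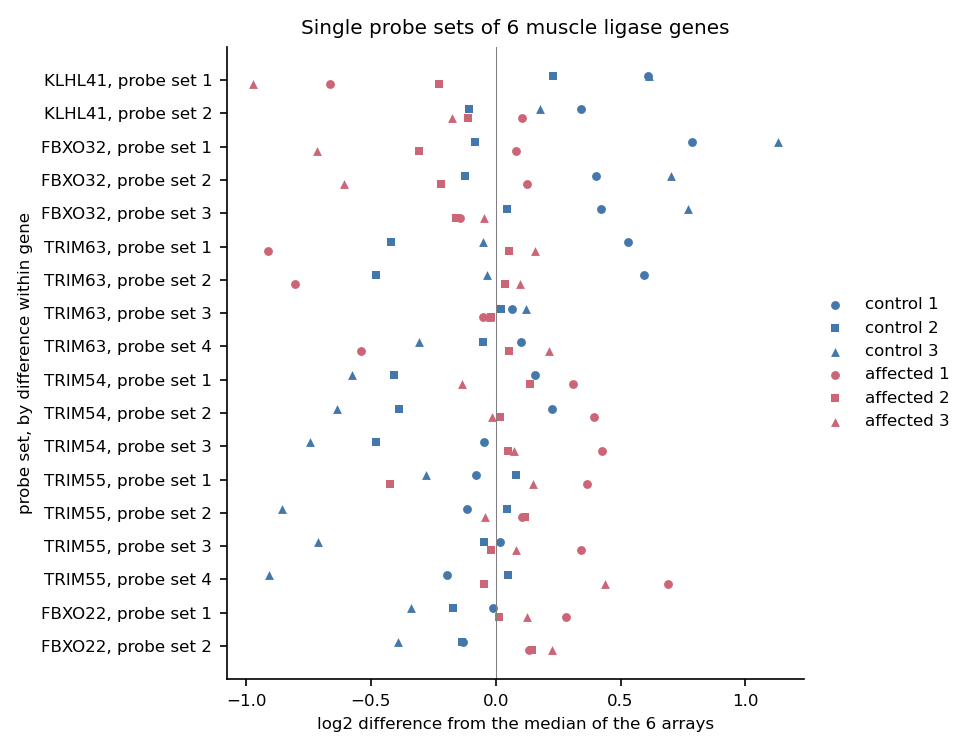
Each row is 1 probe set of KLHL41, FBXO32, TRIM63, TRIM54, TRIM55 or FBXO22, ordered by difference within the gene, and each point is 1 array (log2 difference from the median of the 6 arrays; blue control, red affected). Both FBXO22 probe sets separate the groups, 1 of the 2 KLHL41 probe sets does, and the 3 FBXO32 probe sets share high values on control 1 and control 3.

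KLHL41, a CUL3 adaptor of the sarcomere whose loss causes nemaline myopathy, had the smallest p of all members. Its values were 0.48, 0.06 and 0.40 in the controls and -0.28, -0.17 and -0.57 in the affected hearts. All 3 affected hearts lay below all 3 controls. The difference was -0.65 (SE 0.16, interval -1.05 to -0.25, limma adjusted p = 0.322), or 1.57-fold. With single arrays left out it ran from -0.78 to -0.53, and the unadjusted p was at most 0.0343 over 15 alternatives.

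The probe sets of KLHL41 did not agree in size. One had values of 0.61, 0.23 and 0.61 in the controls and -0.66, -0.23 and -0.97 in the affected hearts, a difference of -1.10 (SE 0.22, limma adjusted p = 0.296). The other differed by -0.20 (SE 0.14) with overlapping groups.

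KLHL40, the close relative that stabilises nebulin and leiomodin 3, had a difference of the opposite sign, with overlapping groups. Its values were -0.20, -0.75 and 0.14 in the controls and -0.00077, 0.00077 and 0.24 in the affected hearts. Control 2 alone was low, and the difference of 0.35 (SE 0.24) was 0.11 without it. KLHL30 had 0.50, 0.01 and 0.32 in the controls and -0.08, -0.06 and -0.01 in the affected hearts, a difference of -0.33 (SE 0.13). The groups did not overlap, although control 2 and affected 3 differed by little, and its single probe set correlated with the tag median at 0.83.

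The remaining KLHL genes of muscle all overlapped between the groups or followed the tags. KLHL38, a gene raised in muscle wasting, differed by -0.32 (SE 0.32), with 0.76 on control 3, and by -0.05 without that array. KLHL31, a CUL3 adaptor of heart and skeletal muscle, had a value of -0.56 on affected 3, and its difference of -0.24 (SE 0.20) was -0.04 without it. KLHL24, mutated in a cardiomyopathy with skin fragility, differed by -0.19 (SE 0.23) and by -0.01 without affected 1. KLHL33 and KLHL34 followed the tags, at -0.05 and -0.04.

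Outside the muscle list, KLHL20 held the probe set with the smallest p of all members. This probe set had values of -0.38, -0.18 and -0.40 in the controls and 0.23, 0.18 and 0.27 in the affected hearts, a difference of 0.55 (SE 0.08, limma adjusted p = 0.296). The other KLHL20 probe sets gave 0.47 and -0.23, the latter following the tags, and the gene value was 0.26 (SE 0.11). KLHL12, a CUL3 adaptor of vesicle coats, had the second largest difference upward among the members, at 0.73 (SE 0.52). Its values were 0.01, -1.20 and -0.01 in the controls and 0.79, -0.56 and 0.77 in the affected hearts, so that control 2 and affected 2 were both low. Without affected 2 the KLHL12 difference was 1.18, and without control 2 it was 0.34. KLHL10 and KLHL26 differed by -0.21 (SE 0.07) and -0.13 (SE 0.04), and all 3 probe sets of KLHL10 followed the tags. In the whole KLHL family 11 of 35 genes were above 0, with a median of -0.10 against -0.07 over all genes. Wholly below the controls lay 16 (45.7%, against 41.7% of all genes).

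Many ASB genes varied widely between dogs. A range of at least 1 on the log2 scale over the 6 arrays was seen in 7 of 17 ASB genes (41.2%), against 16.9% of all members and 18.1% of all genes. All of these were on the muscle list, where the other families had such a range in 9 of 24 genes (37.5%), and no test set the families against each other. ASB14, ASB15, ASB18 and ASB12, ankyrin and SOCS box genes known from striated muscle, had the 4 widest ranges of the family. In each of them the groups overlapped and the arrays of a group lay far apart.

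ASB14 had values of -0.47, 0.60 and -1.04 in the controls and 0.37, 1.96 and -0.47 in the affected hearts. ASB18 had values of -0.56, 1.30 and 0.50 in the controls and -1.53, 1.01 and -0.75 in the affected hearts. For ASB12 they were -0.41, 0.84 and 0.34 in the controls and -0.26, 0.58 and -1.12 in the affected hearts. In all of these genes control 2 and affected 2 were the highest arrays of their group.

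ASB15 had values of -1.79, 0.30 and 0.32 in the controls and -0.30, 1.05 and -0.68 in the affected hearts, with affected 2 again highest and control 1 lowest. The differences were 0.92 (SE 0.75) for ASB14, -0.84 (SE 0.81) for ASB18, -0.52 (SE 0.53) for ASB12 and 0.41 (SE 0.76) for ASB15. Their intervals ran from -0.97 to 2.82, from -2.88 to 1.20, from -1.87 to 0.83 and from -1.51 to 2.34, so that a 2-fold difference in either direction lay within those of ASB18 and ASB15, a 2-fold higher value within that of ASB14 and a 2-fold lower value within that of ASB12.

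These differences moved widely with single arrays left out. The ASB14 difference ran from 0.25 without affected 2 to 1.47 without affected 3. That of ASB18 ran from -1.56 without affected 2 to -0.29 without affected 1, and was -0.40 without control 2. For ASB12 it ran from -0.95 without affected 2 to -0.10 without affected 3, and was -0.23 without control 2. ASB15 turned to -0.10 without affected 2 and to -0.28 without control 1. The probe sets of a gene ran together, at 1.20 and 0.65 for ASB14, -0.60 and -0.44 for ASB12, and -1.30, -0.65 and -0.57 for ASB18.

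Of the 11 ASB genes on the muscle list, 7 had their highest value on control 2 or affected 2 (63.6%), and so did 7 of the 24 other genes of the list (29.2%), FBXW7, FBXW11 and FBXL17 among them. The share was 16.8% of all genes and 28.6% of those with a range of at least 1. The 3' minus 5' difference of the GAPDH control probe sets, a measure of RNA integrity, was highest on the same arrays, at 0.30 on control 2 and 0.26 on affected 2. On the other 4 arrays it was between -0.19 and -0.01. For beta-actin these arrays had 0.16 and -0.13, and the highest value was 0.84 on affected 3. The part of RNA integrity in the ASB values was not tested, and these arrays were singled out after the values were seen.

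**Figure D3:**
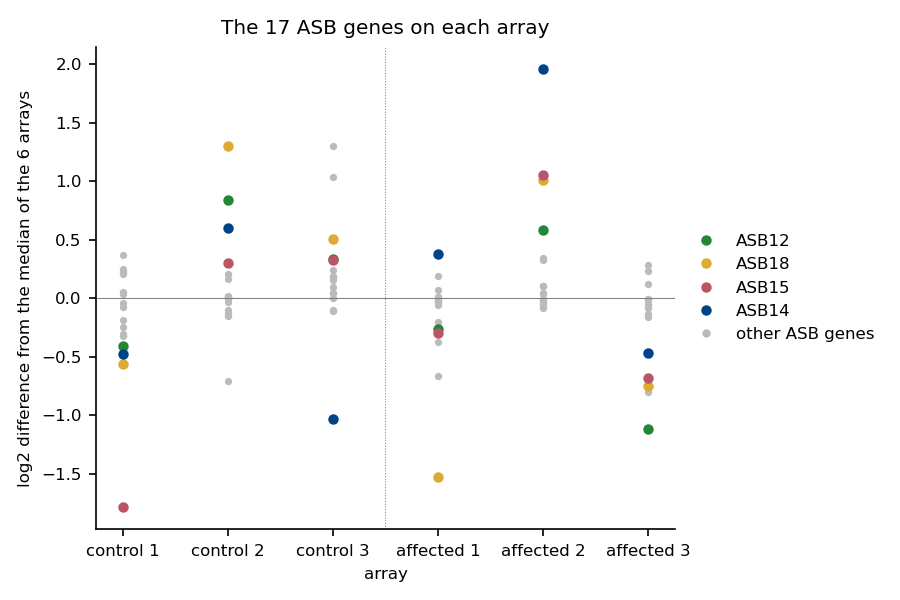
The values of all 17 ASB genes on each array (log2 difference from the median of the 6 arrays), with the 4 genes of widest range in colour, control arrays left and affected arrays right of the dotted line. ASB12, ASB14, ASB15 and ASB18 are above 0 on control 2 and affected 2 and below 0 on affected 3.

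The other ASB genes of the muscle list had narrower ranges than ASB12, ASB14, ASB15 and ASB18. Those of ASB4, ASB5 and ASB11 were still 1.38, 1.36 and 1.13. ASB2, which drives breakdown of filamins, had values of -0.31, -0.71 and 0.18 in the controls and 0.19, -0.07 and 0.23 in the affected hearts. Its difference of 0.40 (SE 0.24) was 0.18 without control 2, and its probe sets gave 0.44, 0.37 and 0.37. ASB11 differed by -0.40 (SE 0.30), with -0.80 on affected 3, and by -0.70 without affected 2 and -0.14 without affected 3. ASB5 and ASB4 differed by -0.38 (SE 0.35) and -0.49 (SE 0.37), with 1.04 and 1.30 on control 3, and by -0.02 and -0.07 without that array. ASB8, ASB10 and ASB16 differed by -0.16, 0.15 and 0.04. Of the 17 ASB genes 3 lay wholly below the controls (17.6%, against 41.7% of all genes), ASB4, ASB13 and ASB17. In ASB4 control 2 at 0.02 and affected 2 at -0.02 nearly met. ASB13 and ASB17, outside the muscle list, differed by -0.16 (SE 0.07) and -0.12 (SE 0.06), and ASB17 followed the tags.

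**Figure D4:**
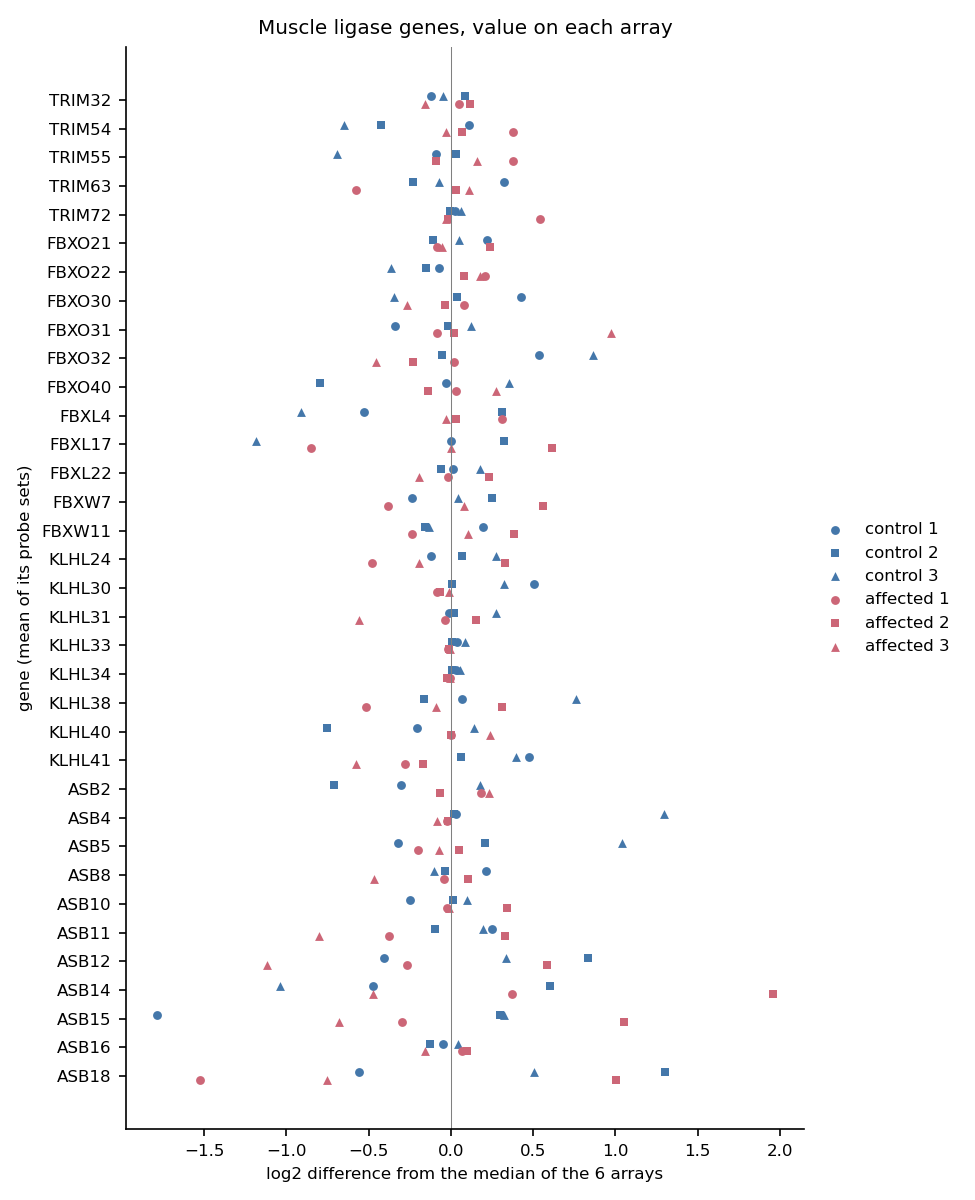
The 35 measured ligase genes of the muscle list, grouped by family, with 1 point per array (log2 difference from the median of the 6 arrays; blue control, red affected). FBXO22 alone lies wholly above the controls and 5 genes lie wholly below, KLHL41, KLHL30 and ASB4 among them. ASB12, ASB14, ASB15 and ASB18 spread widely within each group.

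Over the whole muscle list, 35 of 37 listed genes were measured, 17 with a difference above 0 and 18 below, with a median of -0.02 against -0.07 over all genes. At an unadjusted limma p under 0.05 there were 2 (5.71%, against 10.5% of all genes), FBXO22 upward and KLHL41 downward. FBXO22 alone lay wholly above the controls (2.86%, against 5.8% of all genes), and 5 genes lay wholly below (14.3%, against 41.7%). By family, 4 of 5 TRIM, 3 of 6 FBXO, 2 of 3 FBXL and 2 of 2 FBXW genes of the list were above 0. The KLHL genes gave 1 of 8 and the ASB genes 5 of 11, where 5285 of all 15115 genes were above 0. The median of the list was -0.12 without affected 2.

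TRIM genes induced by interferon, which act in antiviral defence, gave small values. Of 10 listed, 7 were measured and all 7 were below 0, with a median of -0.11, and in 5 the affected values lay wholly below the controls. Of all genes 65.0% were below 0 and 41.7% lay wholly below, with a median of -0.07. TRIM56 differed by -0.20 (SE 0.08), TRIM69 by -0.13 (SE 0.07) and TRIM38 by -0.08 (SE 0.04). In 4 of the 7 genes every probe set followed the tags. Control 2 had the highest list median of other interferon response genes (0.99, against -0.22 to 0.07 on the other 5 arrays), but the TRIM list did not stand out on it, at 0.01. Of these TRIM genes TRIM21 alone was highest on control 2, at 0.18, with the other arrays between -0.07 and 0.01.

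In the whole TRIM family 7 of 42 genes were above 0, with a median of -0.10 against -0.07 over all genes. Below 0 were 83.3% of them, against 65.0% of all genes. None lay wholly above the controls (0%, against 5.8% of all genes), and 20 lay wholly below (47.6%, against 41.7%). TRIM33, a nuclear ligase of SMAD signalling, differed by -0.21 (SE 0.07), with probe sets at -0.38 and -0.04. The larger one followed the tags, and without it the TRIM33 difference was -0.04. Its difference was larger than the range of the tag median (0.15), and following the tags does not by itself show that a gene is unexpressed. TRIM46, a microtubule protein of axons, had the largest TRIM difference, at -0.53 (SE 0.38), which was -0.14 without control 3, where its value was 1.22. TRIM42 differed by -0.14 and followed the tags.

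The partners of these ligases were described from lists of their own. Of the cullins and adaptors, 9 of 13 measured genes were above 0, with a median of 0.15 and none at an unadjusted limma p under 0.05. The elongins that carry ASB proteins, ELOC and ELOB, differed by 0.28 (SE 0.11) and 0.39 (SE 0.16), and CUL9 by 0.42 (SE 0.17). The list median was 0.02 without control 3. The scaffolds themselves, named after their values were seen, differed by -0.10 (SE 0.15) for CUL1, -0.09 (SE 0.12) for CUL3 and -0.10 (SE 0.20) for CUL5, and SKP1 by 0.15 (SE 0.14).

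The NEDD8 cycle, which switches cullin ligases on and off, held 4 of 22 genes at an unadjusted p under 0.05 (18.2%, against 10.5% of all genes), all higher. NEDD8 had values of -0.10, -0.12 and -0.07 in the controls and 0.14, 0.09 and 0.13 in the affected hearts. The groups were apart with little spread, and the difference was 0.22 (SE 0.04, limma adjusted p = 0.322). COPS3, a subunit of the COP9 signalosome that removes NEDD8, had values of -0.27, -0.07 and -0.34 in the controls and 0.16, 0.14 and 0.07 in the affected hearts, a difference of 0.35 (SE 0.08). CAND2, a cullin exchange factor of muscle, had values of -0.34, -0.37 and -0.17 in the controls and 1.12, 0.17 and 1.35 in the affected hearts. Affected 1 and affected 3 were far above the rest, and the difference was 1.17 (SE 0.32), or 2.25-fold. GPS1, another signalosome subunit, was the fourth at 0.45 (SE 0.12).

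Among ubiquitin, E1 and E2 genes 20 of 30 were above 0 with a median of 0.10. At an unadjusted limma p under 0.05 there were 2 of the 30 (6.67%, against 10.5% of all genes). These were the conjugating enzymes UBE2H at -0.54 (SE 0.19) and UBE2B, a partner of muscle protein breakdown, at -0.19 (SE 0.07). UBE2S followed at 0.27 (SE 0.11). Without control 3 the median of this list was -0.0012.

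Regulators of wasting and other ligases of muscle gave 5 of 34 at an unadjusted limma p under 0.05 (14.7%, near the 10.5% of all genes), 3 higher and 2 lower. The list median was -0.0089, which was 0.069 without control 1, 0.022 without affected 1, 0.037 without affected 2 and -0.089 without affected 3. EIF4EBP1, the translation inhibitor that FOXO factors raise, had values of 0.10, 0.61 and 0.94 in the controls and -1.18, -0.10 and -0.52 in the affected hearts, a difference of -1.15 (SE 0.35). All affected hearts lay below all controls. The ligase HUWE1 differed by 0.61 (SE 0.19) and the proteasomal deubiquitinase USP14 by 0.26 (SE 0.09). FOXO3 itself, named after its value was seen, had 1.07, -0.04 and 0.63 in the controls and -0.95, 0.04 and -0.05 in the affected hearts. Like FBXO32, it was high on control 1 and control 3 and overlapped between the groups. The affected hearts ran otherwise, as FOXO3 was lowest on affected 1 (-0.95), where FBXO32 had its highest affected value (0.02). A link between these genes was not tested.

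Known substrates and partners of the muscle ligases gave 18 of 27 above 0 with a median of 0.14, which was 0.044 without control 2. The list as chosen shares sarcomere genes, such as MYH7, MYL2 and TTN, with the cardiomyocyte markers. Those markers had the same median of 0.14, with 14 of 17 above 0, so the values are not particular to ligase substrates. At an unadjusted limma p under 0.05 there was 1 (3.7%, against 10.5% of all genes). This was CAV3, muscle caveolin, at 0.64 (SE 0.24). Desmin (DES), a substrate of TRIM32, differed by 0.62 (SE 0.27), and EIF3F, a translation factor degraded through FBXO32, by 0.29 (SE 0.13).

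Proteasome subunits, which act after the ligases, differed from them in these counts. Of 34 subunits 28 were above 0 with a median of 0.29, and 10 (29.4%) had an unadjusted limma p under 0.05, all higher. Of all genes 10.5% had such a p, 4.88% higher, and of the 148 ligase genes 4 were higher and 5 lower. None passed the adjusted threshold. PSMC2 led with 0.63 (SE 0.11), followed by PSMC5 at 0.34 (SE 0.07) and PSMD2 at 0.46 (SE 0.11). No test set the subunits against the ligase genes, and the list medians of the subunits were lowest on control 3 (-0.28) and highest on affected 1 (0.21), as those of the fibroblast markers were.

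**Figure D5:**
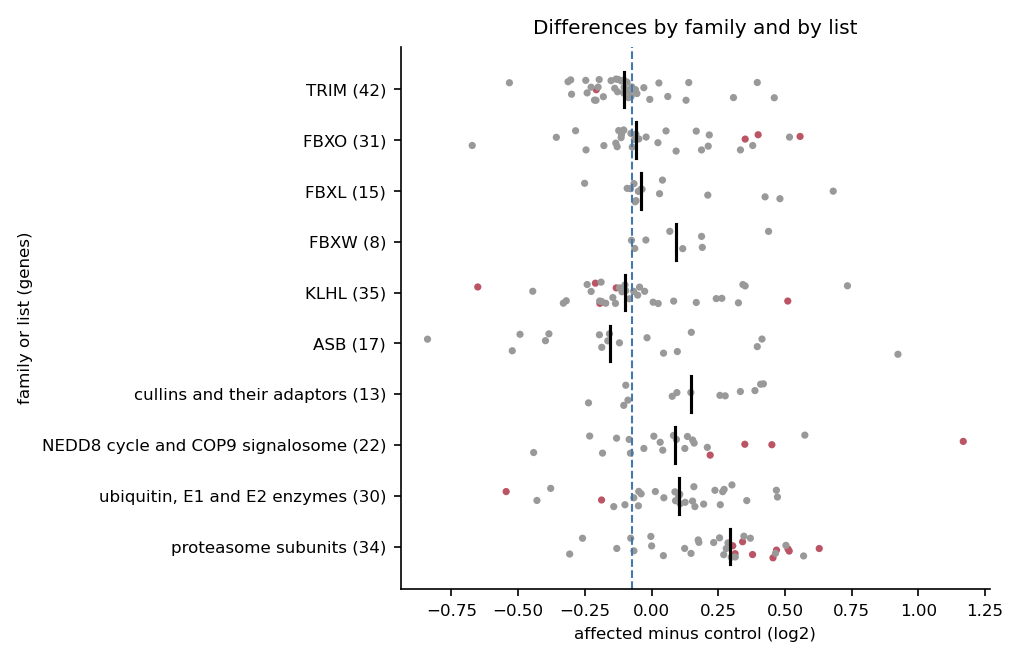
Each point is 1 gene's affected minus control difference (log2), red where the unadjusted limma p was under 0.05, with a black bar at the median of each family or list and the number of genes in brackets; the dashed line is the median over all genes (-0.07). The 6 ligase families lie around that line, with medians from -0.16 for ASB (-0.07 without control 3) to 0.09 for FBXW, and the proteasome subunits lie to the right of it, with a median of 0.29.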

How the data were processed

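GCRMA and MAS5 stand in the submitters' processing notes, without role, order or version; the genome build was not given in the sources used here. The deposited values were taken as log2; this scale was inferred from those names and from the values. Every probe set has a median of 0 over the 6 arrays (largest absolute median 5e-07), so levels are lost. Of 43035 probe sets, 111 controls were left out; 29254 had 1 gene symbol, 439 several and 13231 were unlisted, and only the first were named. Of the 148 member symbols, 138 were found in RefSeq's dog gene table by Entrez ID, all with the same symbol.

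Gene means over all probe sets, unfiltered, were fitted with limma 3.58.1 in R 4.3.3 (two-sided, group alone in the model; degrees of freedom 4 residual, 1.28 prior), and p-values were adjusted by Benjamini-Hochberg for all 15115 genes; probe sets were fitted likewise. Intervals are 95% and moderated. The steps were tested on simulated data with independent noise for each gene. Such data lack the profile that the tag-following probe sets share, so the effect of that profile was not tested. The number of arrays limits the precision, and each array was taken as 1 dog, as the labels call them biological replicates.

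Named were all measured genes of the muscle list, per family and direction the 3 smallest p without overlap, the 10 largest differences, and the 3 smallest p of each other list, 57 members in all. The members and lists were chosen with earlier results of these data known. Alternatives were a range filter, the widest probe set per gene, quantile normalization, median centring, no tag-following probe sets, sex, age, a replicate block, a robust prior and leaving out each array.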

Additional observations from a re-analysis of the deposited data

How the results depend on the processing

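No member passed the adjusted threshold in limma in any of 15 alternatives (lowest adjusted p 0.162, without control 2), and of 57 named genes 29 kept their sign in all of them, and 11 more in the 13 or 14 that could be run for them, as a filter left them no probe set. Ligase genes at an unadjusted limma p under 0.05, 4 higher and 5 lower as reported, numbered 10 and 26 with age as a covariate (24.3%, against 26.8% of all genes). With single arrays left out there were 2 to 8 higher and 1 to 30 lower, the most without control 2 (25.7%, against 30.3% of all genes). There were 2 lower among the upper 60% by range and 8 after quantile normalization, where 2.98% and 6.95% of all genes were lower. There were 2 after median centring, 1 without tag-following probe sets and 9 with sex, where 2.23%, 2.26% and 5.78% of all genes were lower. At 2-fold, 2 appeared with the widest probe set per gene, and 0 to 1 with an array left out. The share of all genes at 2-fold was not counted there.

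Genes wholly below the controls, 57 as reported, numbered 20 in the upper 60% by range (20%, against 21.3% of all genes). They numbered 21 after quantile normalization (14.2%, against 16.8%), 20 after median centring (13.5%, against 15.3%) and 14 without tag-following probe sets (13.2%, against 12%). Those wholly above, 5 as reported, numbered 17 after quantile normalization (11.5%, against 11.8% of all genes) and 16 after median centring (10.8%, against 12.8%). With an array left out they numbered 8 to 18 (5.41% to 12.2%, against 6.82% to 12.7% of all genes).

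The median of all members, -0.07, was -0.0091 after quantile normalization, -0.0018 after median centring and -0.0047 without tag-following probe sets. In the upper 60% by range the medians were -0.18 for TRIM, 0.12 for FBXO, 0.15 for FBXL, 0.15 for FBXW and -0.19 for KLHL. After quantile normalization they were -0.041 for TRIM, 0.0079 for FBXO, 0.025 for FBXL and -0.038 for KLHL. After median centring they were -0.031 for TRIM, 0.014 for FBXO, 0.032 for FBXL, 0.17 for FBXW, -0.027 for KLHL, -0.085 for ASB and 0.052 for the muscle list. Without tag-following probe sets they were 0.092 for FBXO, 0.13 for FBXL, 0.15 for FBXW and -0.00043 for KLHL. With the widest probe set FBXW was at 0.23. With single arrays left out FBXO ran from -0.090 to 0.0051, FBXL from -0.061 to -0.031, FBXW from -0.044 to 0.21, ASB from -0.19 to -0.069 (without control 3) and the muscle list from -0.12 to 0.045.

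Signs turned after quantile normalization and median centring in FBXO21 (0.021 and 0.052), FBXL22 (0.052 and 0.037), KLHL33 (0.038 and 0.021), KLHL34 (0.037 and 0.028), FBXL15 (0.0033 and 0.0068) and FBXW9 (0.026 and 0.0098). With single arrays left out they turned in TRIM63 (-0.28 to 0.064), TRIM72 (-0.049 to 0.24), TRIM32 (-0.029 to 0.11), FBXO40 (-0.11 to 0.47), FBXO30 (-0.31 to 0.079), FBXO21 (-0.12 to 0.061), FBXL22 (-0.15 to 0.065), FBXL17 (-0.24 to 0.60), FBXW7 (-0.17 to 0.30), FBXW11 (-0.034 to 0.28), ASB8 (-0.28 to 0.0086), ASB15 (-0.28 to 0.77) and ASB16 (-0.0037 to 0.13).

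The labels number the dogs 1 to 3 in each group. Same-numbered dogs correlated at 0.25, 0.16 and 0.064 in their deviations from the group means, each the highest for its dog, a hint from the data and not the design, so the samples share only a number. With the replicate block 6 ligase genes were higher and 4 lower at an unadjusted limma p under 0.05 (6.76%, against 9.98% of all genes). None passed the adjusted threshold. ASB14 and ASB18 were among the genes at that p with the block only. The causes of these changes were not tested.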
